A study of Mus musculus with 21 samples.

Results

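The canonical histone genes of the mouse were examined for peaks of the NuRD chromatin complex and for changes in chromatin accessibility in the embryonic ganglionic eminences. They were taken as every RefSeq protein-coding gene (GRCm38.p6, the assembly of mm10) whose symbol begins with H1f, H2ac, H2bc, H3c or H4c and a number, or with an older Hist1h to Hist4h name. The rule found 71 genes among 21631 protein-coding genes on chromosomes 1 to 19 and X. Of these, 67 matched by current symbol and 4 by an older symbol only (H4f16, H2bu2, H2aw and H4bc24, the last an H2B gene by its older name). They comprised 10 genes of the linker histone H1, 18 of H2A, 18 of H2B, 12 of H3 and 13 of H4. The rule reads symbols and no measured value.

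The samples came from CD1 mouse embryos and are labelled as basal ganglia. E12.5 embryos of the Dlx1/2 knockout (KO) and the wild type (WT) were assayed for accessibility by ATAC-seq, with 3 embryos per genotype in each of 2 cell fractions. FTneg cells belong to the subventricular and mantle zones, and FTpos cells to the ventricular zone, where progenitors divide. Whether Dlx1 and Dlx2 are lost in all cells, and how the knockout was made, is not given in the sources used here. The embryo numbers of the labels recur in both fractions, so the fractions appear to share embryos and are not independent. In E13.5 embryos, with no genotype or treatment given, binding was measured by chromatin immunoprecipitation (ChIP-seq) for CHD4, HDAC1, HDAC2, MBD3, RBBP4 and RBBP7. Each target had 1 library, called against 1 of 3 input libraries. The deposited files were lists of called peaks or regions, so depth is unknown, no list has a replicate, and all comparisons below are descriptions without a test.

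Replication-dependent histone genes supply the histones that package newly copied DNA. They are short genes without introns, they are transcribed mainly in S phase, and their mRNAs end in a stem-loop in place of a poly(A) tail. Most lie in dense clusters in which H2A and H2B genes are often paired head to head. NuRD joins a nucleosome remodeller (CHD4) with histone deacetylases (HDAC1, HDAC2), a methyl-CpG-binding-domain protein (MBD3) and the histone-binding proteins RBBP4 and RBBP7. RBBP4 and RBBP7 also belong to other complexes that handle histones, among them the chaperone CAF-1 (RBBP4) and the HAT1 acetyltransferase (RBBP7). The symbol rule is wider than the replication-dependent class: H1f0 and H1f10 encode linker histones made outside S phase, and H1f6, H1f7, H1f8, H2ac1 and H2bc1 are germline genes.

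Sample label and list name disagree for 3 of the ChIP targets: the CHD4 sample has a list named HDAC1, the HDAC1 sample one named HDAC2, and the HDAC2 sample one named CHD4. These lists are called CHD4-labelled, HDAC1-labelled and HDAC2-labelled here, and which subunit each one holds could not be settled. The names of the MBD3, RBBP4 and RBBP7 lists match their samples. Each peak's fold enrichment over input at its summit is the authors' value, and folds are ranked within a list only.

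The genes fell into 4 clusters, in which neighbours lay at most 200 kb apart, and 5 isolated genes. On chromosome 3, 10 genes spanned 50.3 kb (96219885 to 96270192). On chromosome 11, H2bu2 and H2aw spanned 6.28 kb (58948911 to 58955192). Chromosome 13 held 23 genes over 328 kb (21715711 to 22043658) and 31 genes over 404 kb (23531044 to 23934913). The isolated genes were H1f10, H1f8 and H4f16 on chromosome 6 and H1f0 and H1f7 on chromosome 15.

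No peak of MBD3 or of the HDAC2-labelled list was called at a histone gene, while the other 4 lists had peaks at many of them. A gene was counted for a list when a peak touched the 1 kb on either side of either gene end. MBD3 had a peak at 0 of the 71 histone genes, against 23.4% of all protein-coding genes. The HDAC2-labelled list also had 0 of 71, against 9.88%. The CHD4-labelled list had peaks at 33 histone genes (46.5%), close to its 44.7% of all genes. RBBP4 had peaks at 28 (39.4%, against 46.9%), the HDAC1-labelled list at 14 (19.7%, against 27.4%) and RBBP7 at 9 (12.7%, against 12.3%). At least 1 of the 6 lists was present at 38 histone genes (53.5%), against 56.0% of all genes, and all 6 were present at none of the 71, against 2.95%.

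Histone genes are short, with a median length of 496 bp against 17329 bp over all genes, so their 2 end windows overlap and cover less sequence. With 1 kb around the start site as the window for every gene, 0 of 66 histone genes had an MBD3 peak, against 23.2% of all genes. On the same windows 29 of 66 (43.9%) had a CHD4-labelled peak, against 46.1%. The start-site windows of histone genes lie almost wholly within the end windows already counted, so their MBD3 count of 0 was all but fixed in advance. What the equal windows add is the share of all genes, 23.2%. The window of 5 kb on either side could have added MBD3 peaks. It held none at histone genes, while 28.9% of all genes had one. The HDAC2-labelled list then reached 1 histone gene (1.41%, against 13.1%), and RBBP4 stood above the share of all genes (60.6%, against 54.3%). RBBP4 had 30 distinct peaks at histone genes with this window, against 29 with 1 kb. Its higher share thus came mostly from the same peaks counted for more neighbouring genes.

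**Figure D1:**
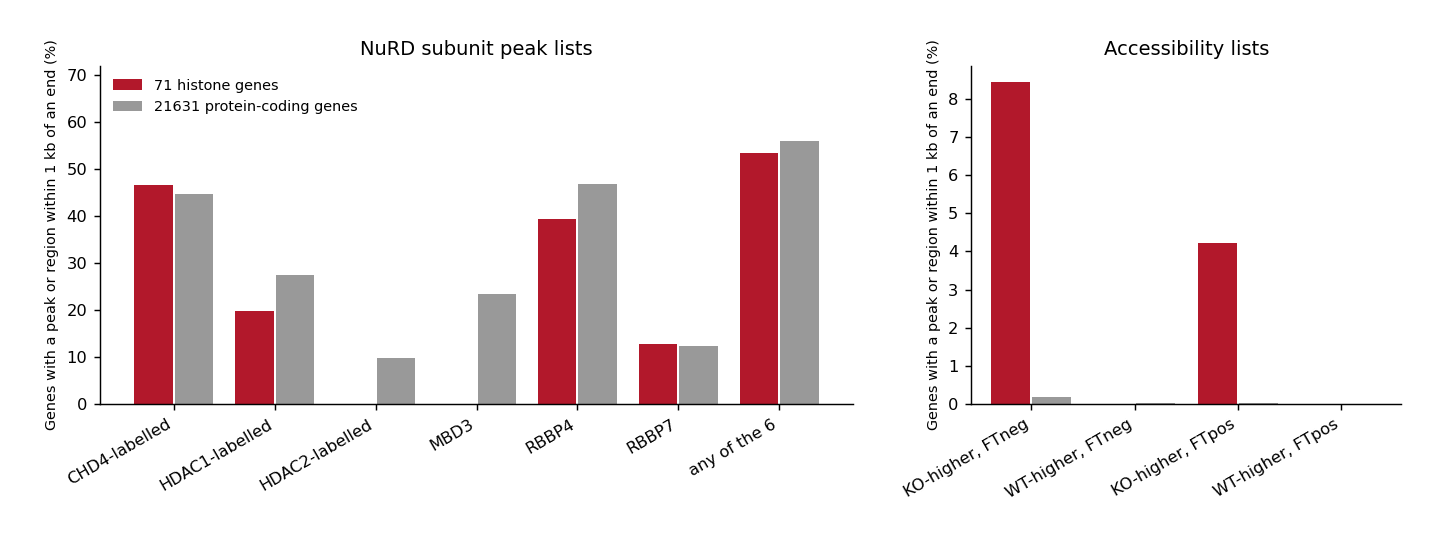
Share of genes, in percent, with a peak or region within 1 kb of a gene end, for the 71 histone genes (red) and all 21631 protein-coding genes (grey), with 1 list per pair of bars. MBD3 and the HDAC2-labelled list stand at 0 for the histone genes, against 23.4% and 9.88% of all genes. The KO-higher accessibility lists reach 8.45% (FTneg) and 4.23% (FTpos) of the histone genes, against 0.18% and 0.0185% of all genes. Those histone genes share 3 regions in FTneg and 2 in FTpos, all in the larger chromosome 13 cluster.

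The histone genes that had peaks had 1 to 4 of the lists. No peak was found at 33 genes (46.5%, against 44.0% of all genes) and 1 list at 8 (11.3%, against 11.4%). There were 2 lists at 15 genes (21.1%, against 12.9%), 3 lists at 14 (19.7%, against 12.2%) and 4 lists at 1, H1f10 (1.41%, against 9.76%). No histone gene had 5 or 6 lists, against 6.77% and 2.95% of all genes. Some peaks counted for more than 1 gene. The CHD4-labelled list had 32 distinct peaks at histone genes, of which 13 counted for 2 or more of them, and RBBP4 had 29, of which 8 did. The HDAC1-labelled list had 13, of which 4 did, and RBBP7 had 7, of which 2 did.

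**Figure D2:**
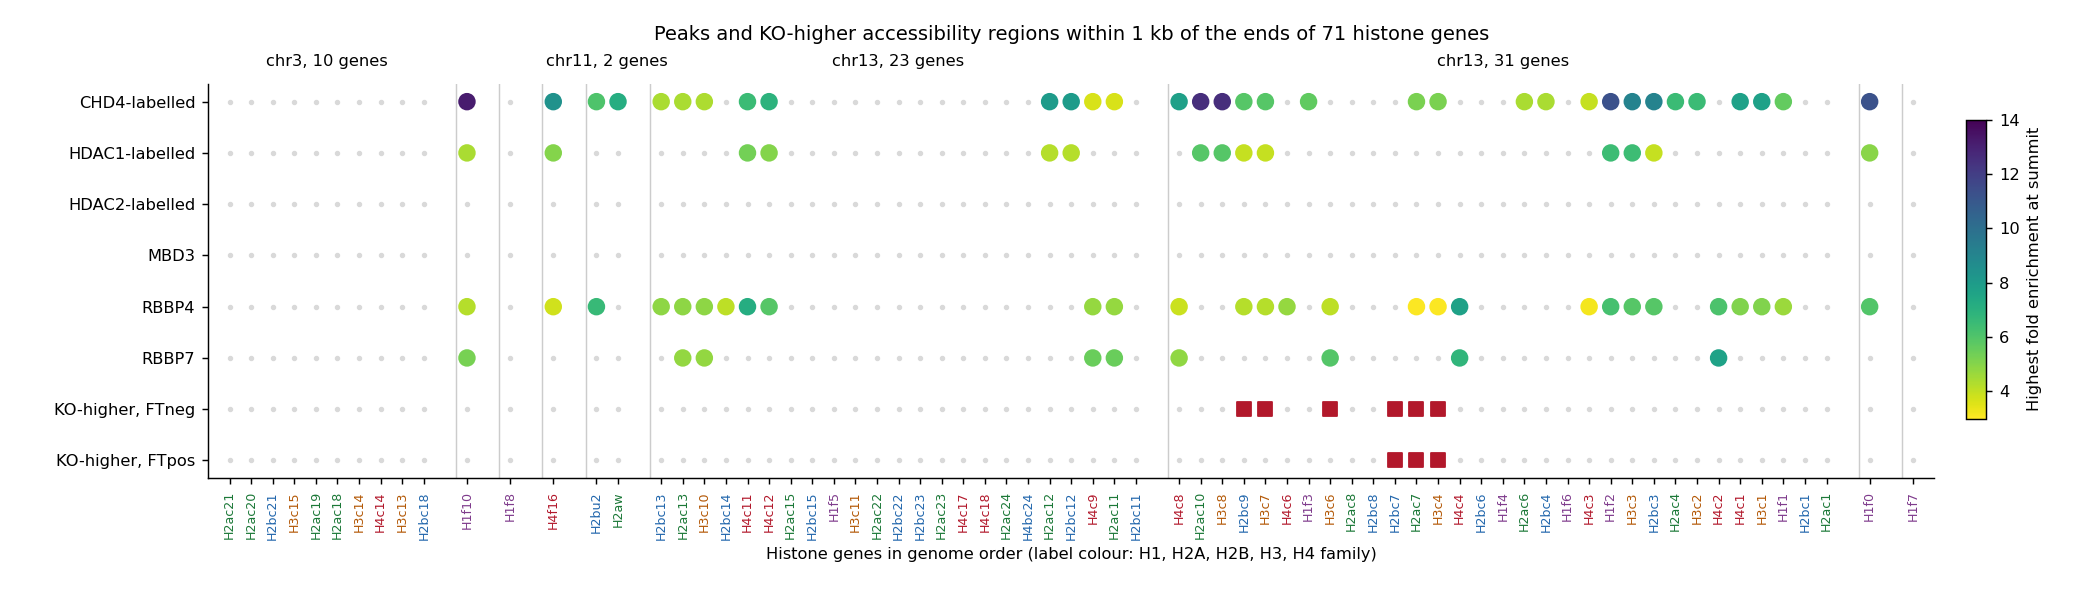
Each column is 1 of the 71 histone genes in genome order, with vertical lines between clusters and isolated genes, and each row is a list. Circles mark genes with a peak, coloured by the highest fold enrichment at a summit, and red squares mark genes with a KO-higher accessibility region. The MBD3 and HDAC2-labelled rows and the 10 columns of the chromosome 3 cluster hold no circle.

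The peaks at histone genes were close to the other peaks at gene ends in fold and narrower in median width in all 4 lists. Their median fold enrichment was 5.94 in the CHD4-labelled list (range 3.18 to 13.2), against 6.29 over all of its peaks at gene ends. It was 4.63 for RBBP4 (3.08 to 7.71), against 4.88, and 4.97 for the HDAC1-labelled list (3.97 to 6.46), against 5.23. For RBBP7 it was 5.52 (4.80 to 7.68), against 5.54. The median width was 684 bp in the CHD4-labelled list, against 774 bp at gene ends, 463 bp for RBBP4, against 664 bp, 346 bp for the HDAC1-labelled list, against 446 bp, and 318 bp for RBBP7, against 380 bp.

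The absence of MBD3 was set against how often RBBP4 peaks elsewhere carried an MBD3 peak. Of the 29 RBBP4 peaks at histone genes, 0 overlapped an MBD3 peak, against 44.5% of the 10739 RBBP4 peaks at gene ends. Among the 9250 of those whose fold lay in the range of the histone peaks, the share was 42.2%. The HDAC2-labelled list likewise overlapped 0 of the 29, against 16.6% at gene ends and 15.3% within the range of fold. That range holds most of the RBBP4 peaks at gene ends, so it is not a close match on fold. The 29 peaks all touch windows in which MBD3 and the HDAC2-labelled list had no peak. Their overlaps of 0 thus nearly restate the counts of genes and are not separate evidence.

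The remaining subunits overlapped RBBP4 at histone genes more nearly as they did elsewhere. CHD4-labelled peaks overlapped 65.5% of the RBBP4 peaks at histone genes, against 71.1% at gene ends. HDAC1-labelled peaks overlapped 31.0%, against 46.5%, and RBBP7 24.1%, against 23.1%. All 7 RBBP7 peaks at histone genes overlapped an RBBP4 peak, against 94.3% of the 2661 RBBP7 peaks at gene ends, and the 2 targets shared an input. All 13 HDAC1-labelled peaks there overlapped a CHD4-labelled one, against 90.8% of 6324.

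Seen from the CHD4-labelled list, every other list overlapped a smaller share of its peaks at histone genes than at gene ends, and RBBP4 was the most frequent partner in both. RBBP4 overlapped 17 of the 32 CHD4-labelled peaks (53.1%), against 75.3% at gene ends. The HDAC1-labelled list overlapped 34.4%, against 50.8%, and RBBP7 4 of the 32, against 18.4%. MBD3 overlapped 0 of the 32, against 39.0%, and the HDAC2-labelled list 0, against 14.9%. Here too the zeros nearly restate the absence of these lists from the windows of the histone genes. No test of these differences was made.

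**Figure D3:**
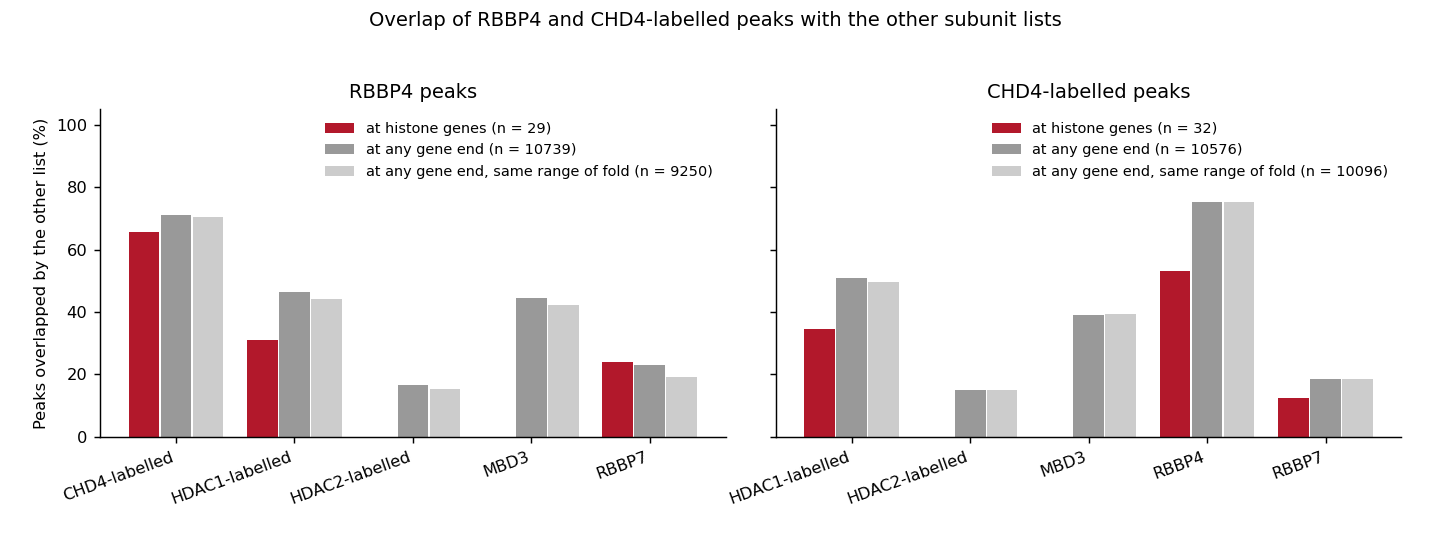
Percent of RBBP4 peaks (left) and CHD4-labelled peaks (right) that overlapped, by at least 1 bp, a peak of each other list, for peaks at histone genes (red), at any gene end (dark grey) and at any gene end with a fold between the lowest and highest of the histone peaks (light grey). No red bar rises for MBD3 or the HDAC2-labelled list, against 44.5% and 16.6% of the RBBP4 peaks at any gene end. These zeros nearly follow from the absence of both lists from the windows of the histone genes.

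Among the linker histone genes, the CHD4-labelled list had peaks at 5 of 10, against 44.7% of all genes. The HDAC1-labelled list had peaks at 3, against 27.4%, RBBP4 at 4, against 46.9%, and RBBP7 at 1, against 12.3%. The linker histone genes as a family were thus near the share of all genes in each of these lists. The CHD4-labelled folds were over 11 at H1f10, H1f2 and H1f0 and under 6 at H1f1 and H1f3. H1f10, the replication-independent linker histone H1x, had a CHD4-labelled peak of 13.2-fold and 1996 bp that covered the gene. It was the highest of that list at a histone gene and above 97.7% of the list. The same gene had an HDAC1-labelled peak of 4.39-fold, an RBBP4 peak of 4.24-fold and an RBBP7 peak of 5.24-fold. H1f0, the linker histone of differentiated cells, had a CHD4-labelled peak of 11.2-fold and 2946 bp, 2 HDAC1-labelled peaks of up to 4.97-fold and 3 RBBP4 peaks of up to 5.97-fold. Both are among the 3 H1 genes with 3 or more lists, and neither is replication-dependent.

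The other was H1f2, a replication-dependent linker histone. Its CHD4-labelled peak (11.3-fold), its HDAC1-labelled peak (6.46-fold, the highest of that list at a histone gene) and its RBBP4 peak (6.26-fold) all had summits just past the 3′ end, 10 to 208 bp beyond the gene. H1f1 had a CHD4-labelled peak of 5.64-fold and an RBBP4 peak of 4.63-fold, both about 1 kb upstream. Both also counted for H3c1, with summits nearer to that gene, at 192 and 300 bp. H1f3 had a CHD4-labelled peak of 5.68-fold past its end. The germline genes H1f6, H1f7 and H1f8, and also H1f4 and H1f5, had no peak of any list.

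Among the core histone families, a peak of any list was found at 8 of 18 H2A genes (44.4%), 7 of 18 H2B genes (38.9%), 8 of 12 H3 genes (66.7%) and 10 of 13 H4 genes (76.9%), against 56.0% of all genes. RBBP4 was at 3 of 18 H2A, 5 of 18 H2B, 6 of 12 H3 and 10 of 13 H4 genes, against 46.9% of all genes. RBBP7 was at 11.1% of H2A, 0 of the H2B, 16.7% of H3 and 30.8% of H4 genes, against 12.3%. The CHD4-labelled list was at 44.4% of H2A, 33.3% of H2B, 58.3% of H3 and 53.8% of H4 genes, against 44.7%. The families are small and share peaks, and differences between them were not tested.

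Among H2A and H2B genes, the highest fold belonged to a CHD4-labelled peak of 12.6-fold that counted for H2ac10 and for its neighbour H3c8. Its summit lay 52 bp upstream of the H3c8 start and 988 bp past the 3′ end of H2ac10. An HDAC1-labelled peak of 5.88-fold shared the site, with its summit 26 bp upstream of the H3c8 start. The sequence upstream of H3c8 is shown because it holds both summits (chr13:23535168-23535417, forward strand, 250 bases from RefSeq, GRCm38.p6). It ends at the base before the start site, and capitals mark CCAAT, the letters bound by the NF-Y factor in many histone promoters.
H3c8: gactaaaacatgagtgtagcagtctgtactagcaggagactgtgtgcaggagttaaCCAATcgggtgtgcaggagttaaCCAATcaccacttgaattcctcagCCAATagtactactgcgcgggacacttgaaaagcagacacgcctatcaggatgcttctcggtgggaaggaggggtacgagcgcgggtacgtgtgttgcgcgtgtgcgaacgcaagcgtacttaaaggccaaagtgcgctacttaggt
The 3 CCAAT matches lay at bases -194 to -190, -171 to -167 and -147 to -143 from the start, all upstream of both summits.

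On chromosome 11, H2bu2 (H2B) had 3 CHD4-labelled peaks of up to 6.07-fold and 2 RBBP4 peaks, the higher of 6.58-fold, which made it the gene with the third highest RBBP4 fold after H4c4 and H4c11. H2aw (H2A), in the same cluster, had 2 CHD4-labelled peaks of up to 7.17-fold. H3c3 was the H3 gene with the most peaks: 3 CHD4-labelled peaks of up to 9.10-fold, 2 HDAC1-labelled of up to 6.44-fold and 2 RBBP4 of up to 5.89-fold. Several of them also counted for the neighbouring H2bc3. H3c6 had the third highest RBBP7 fold, 5.93.

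The H4 genes carried RBBP4 peaks right at their starts. RBBP4 was found at 10 of 13 H4 genes (76.9%), against 39.4% of all 71 histone genes and 46.9% of all protein-coding genes. The summit nearest to the start lay within 122 bp of it at each of the 10: it was upstream by 14 bp at H4c12, 19 at H4c2, 22 at H4c9, 44 at H4c3, 60 at H4c1, 69 at H4c8, 77 at H4c6, 113 at H4c4 and 122 at H4c11, and downstream by 60 bp at H4f16. All 10 were thus within 250 bp, against 7 of 16 histone genes of the other families (43.8%) and 65.9% of the 8013 protein-coding genes with an RBBP4 peak and a start site. H4 genes were singled out for this after their values had been seen.

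Over all histone genes with an RBBP4 peak and a start site the share within 250 bp was 65.4% (17 of 26), close to that of all genes. RBBP4 summits lay upstream within 214 bp at all 4 H3 genes with such a peak and a start site in the table, and within 191 bp upstream at 3 of 5 H2B genes (H2bc3, H2bc9 and H2bc14). At the 3 H2A genes the nearest ones lay 1002 to 1565 bp downstream of the start, past these short genes. These were the same peaks as those counted at the starts of the neighbours H3c10, H3c4 and H4c9, so the families do not give separate values here. At H1 genes they lay 382 to 982 bp away. In the CHD4-labelled list 3 of 7 H4 genes had a summit within 250 bp, as had 9 of 30 histone genes in all, against 50.8% of all genes with such a peak. The summit lay inside a histone gene for 6 of 32 peaks in the CHD4-labelled list and 4 of 29 in the RBBP4 list. These genes fill only a small part of the windows, so the counts do not show that summits avoid them.

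**Figure D4:**
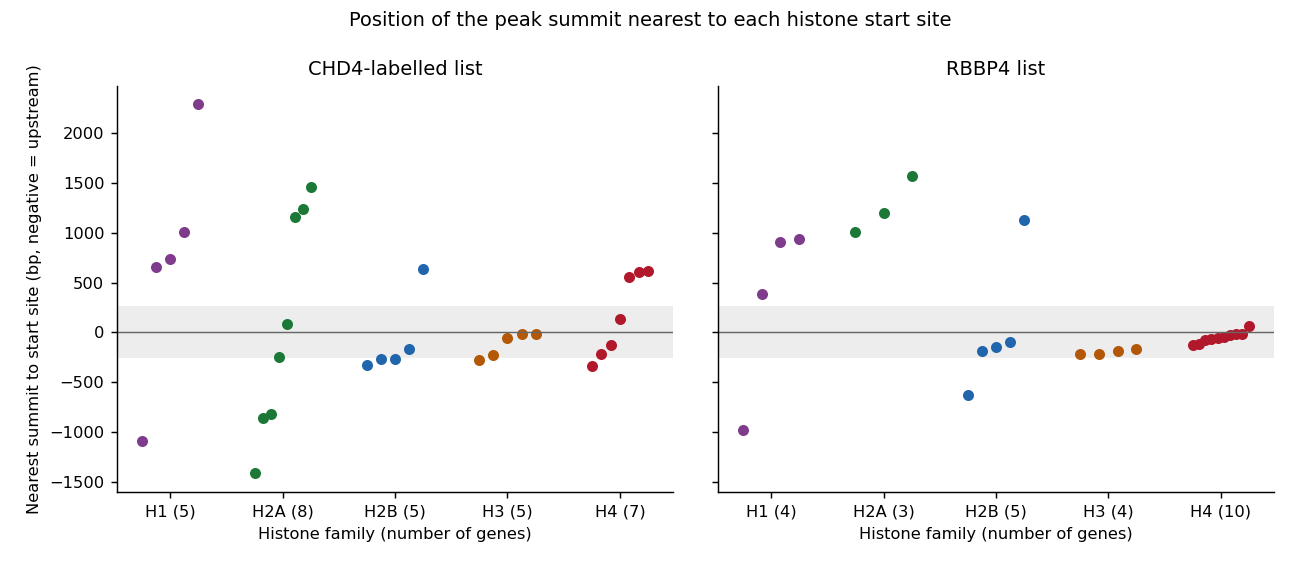
Distance in bp from each histone start site to the nearest summit of the CHD4-labelled list (left) and of RBBP4 (right), with 1 point per gene and the number of genes under each family. The grey band marks 250 bp on either side, and all 10 H4 points of RBBP4 lie in it, 60 bp from the start at the median, against 7 of the 16 points of the other families.

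H4c4 had the highest RBBP4 fold at any histone gene, 7.71 (above 90.5% of the list), and the second highest RBBP7 fold, 6.79. H4c2 had the highest RBBP7 fold, 7.68, beside an RBBP4 peak of 6.14-fold. Neither gene had a CHD4-labelled or HDAC1-labelled peak, nor did H4c6, whose single peak was of RBBP4 (4.74-fold). H4c11 had the second highest RBBP4 fold, 7.18, with its summit 737 bp upstream, and a further RBBP4 peak of 6.68-fold nearer its start. The CHD4-labelled list had 6.48-fold and the HDAC1-labelled list 5.32-fold at H4c11. The isolated gene H4f16 had a CHD4-labelled peak of 8.44-fold, 2 HDAC1-labelled peaks of up to 5.02-fold and 2 RBBP4 peaks of up to 3.79-fold.

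The upstream sequence of H4c4 is shown because the RBBP4 and RBBP7 summits lay within it, 113 and 169 bp before the start (chr13:23581318-23581567, forward strand, RefSeq). Capitals mark TATAAA, the core of a TATA box, and a CCAAT on the reverse strand, read here as ATTGG.
H4c4: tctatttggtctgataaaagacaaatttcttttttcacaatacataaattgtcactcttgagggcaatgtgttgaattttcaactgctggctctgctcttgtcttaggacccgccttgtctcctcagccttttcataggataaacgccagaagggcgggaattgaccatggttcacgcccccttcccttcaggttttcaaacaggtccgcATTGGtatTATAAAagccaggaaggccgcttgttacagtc
The TATAAA lay at bases -32 to -27 and the reverse CCAAT at bases -40 to -36.

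The 33 histone genes without a peak were not scattered. All 10 genes of the chromosome 3 cluster had none, among them H2ac21, H2ac20 and H2bc21, and no peak of any list lay anywhere in its 50.3 kb. The nearest peaks were an RBBP4 peak 38241 bp to its left and an MBD3 peak 131615 bp to its right. On chromosome 13, a run of 12 neighbouring genes from H2ac15 to H4bc24 (21753377 to 21837530, 84.2 kb), which starts with H2ac15, H2bc15 and H1f5, also held no peak, and RBBP4 lay 2574 bp to its left. The other gene without a peak in that cluster of 23 was H2bc11.

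In the larger chromosome 13 cluster, 23 of 31 genes had a peak (74.2%), against 10 of 23 in the smaller one (43.5%) and 56.0% of all protein-coding genes. Neighbours in both clusters share peaks, so their genes are not separate observations. The 8 genes without a peak in the larger cluster were H2ac8, H2bc8, H2bc7, H2bc6, H1f4, H1f6 and the testis genes H2bc1 and H2ac1. H2bc6 is annotated over 37455 bp, and the peaks inside it lie over 1 kb from its ends. Of the isolated genes, H1f8 and H1f7 had none.

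The peakless genes included histone copies whose promoters are nearly the same. Each RefSeq promoter, 250 bases before and 50 after a start site, was split into its 50-base words, and the words found in a promoter elsewhere were counted. At least 50% of the words were shared at 10 of 32 promoters of genes without a peak and at 0 of 35 promoters of genes with one, where the highest share was 11.6%. The 10 were in the 2 long empty stretches: 4 of 8 promoters of the chromosome 3 cluster and 6 of 12 of the run from H2ac15 to H4bc24. All words were shared at 2 of the 10, H2bc23 and H4bc24, and 67.7% at H2ac18 and H2ac19, the lowest of the 10. A read that falls within shared words matches both copies, and read length and the treatment of such reads are not given in the sources used here. The part of this in the missing peaks was not tested, and 22 of the 32 promoters without a peak shared no word. Only RefSeq promoters were searched, not gene bodies, the rest of the windows or the rest of the genome. A promoter that shared no word is thus not shown to lie in unique sequence.

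H4c17 and H4c18, both in the empty run, are shown as the example of such copies (250 bases upstream, chr13:21811496-21811745, forward strand, and chr13:21832198-21832447, reverse strand, RefSeq). Capitals mark TATAAA.
H4c17: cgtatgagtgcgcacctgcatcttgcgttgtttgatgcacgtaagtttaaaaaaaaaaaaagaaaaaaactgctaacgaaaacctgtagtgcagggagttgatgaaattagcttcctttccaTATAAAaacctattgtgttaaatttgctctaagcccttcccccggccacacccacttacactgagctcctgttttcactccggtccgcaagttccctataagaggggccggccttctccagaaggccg
H4c18: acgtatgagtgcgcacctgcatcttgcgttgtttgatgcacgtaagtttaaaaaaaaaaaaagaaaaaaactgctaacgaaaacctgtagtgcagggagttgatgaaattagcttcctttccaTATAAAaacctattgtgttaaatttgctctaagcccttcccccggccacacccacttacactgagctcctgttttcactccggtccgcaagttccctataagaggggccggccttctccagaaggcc
They share an unbroken run of 249 bases, offset by 1 base because their annotated starts differ by that much.

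Accessibility at histone genes differed between KO and WT embryos at a few neighbouring genes, all in the larger chromosome 13 cluster and all higher in KO. In FTneg cells, regions higher in KO than in WT lay at 6 of the 71 histone genes (8.45%), against 0.18% of all protein-coding genes, or 39 genes in all. In FTpos cells they lay at 3 (4.23%), against 0.0185%, or 4 genes in all. Regions higher in WT lay at none of the 71 in either fraction, against 0.0185% of all genes in FTneg and 0.0139% in FTpos. The 6 genes shared 3 regions and the 3 genes shared 2, so the counts of genes stand for few separate places. In bulk samples, a change in the number of cells of a type and a change in accessibility per cell cannot be told apart.

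The regions of largest area at histone genes lay over H2bc7 and H2ac7, an H2B and an H2A gene transcribed away from each other. In FTneg a KO-higher region of 842 bp (chr13:23574128-23574969) covered H2ac7 and the start of H2bc7, and reached within 1 kb of H3c4. Its area, the authors' score of −log10 p summed along the region, was 1631, rank 32 of 727 by area. In FTpos a KO-higher region of 1424 bp (chr13:23573175-23574598) covered H2bc7 and the start of H2ac7 and had an area of 2242, rank 5 of 12. A second FTpos region of 562 bp (chr13:23574740-23575301), at H2bc7, H2ac7 and H3c4, had an area of 595.8, rank 10 of 12. The FTneg region overlapped the FTpos regions by 471 and 230 bp.

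The FTneg summit and that of the larger FTpos region lay 1 bp apart, 132 and 133 bp before the H2ac7 start. Both fell in the 173 bases that separate the 2 annotated starts, at bases 42 and 41 of that interval. It is printed for this reason (chr13:23574208-23574380, forward strand, RefSeq), with CCAAT on either strand in capitals.
H2ac7: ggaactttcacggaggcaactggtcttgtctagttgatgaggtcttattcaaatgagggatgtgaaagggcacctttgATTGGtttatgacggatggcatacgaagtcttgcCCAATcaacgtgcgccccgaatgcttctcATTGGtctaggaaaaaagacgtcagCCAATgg
The interval held 4 CCAAT matches, 2 on each strand. No ChIP peak overlapped any of the 3 regions here. The nearest were a CHD4-labelled peak of 5.20-fold and an RBBP4 peak of 3.08-fold between H2ac7 and H3c4, at distances of 26 and 122 bp from the smaller FTpos region.

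**Figure D5:**
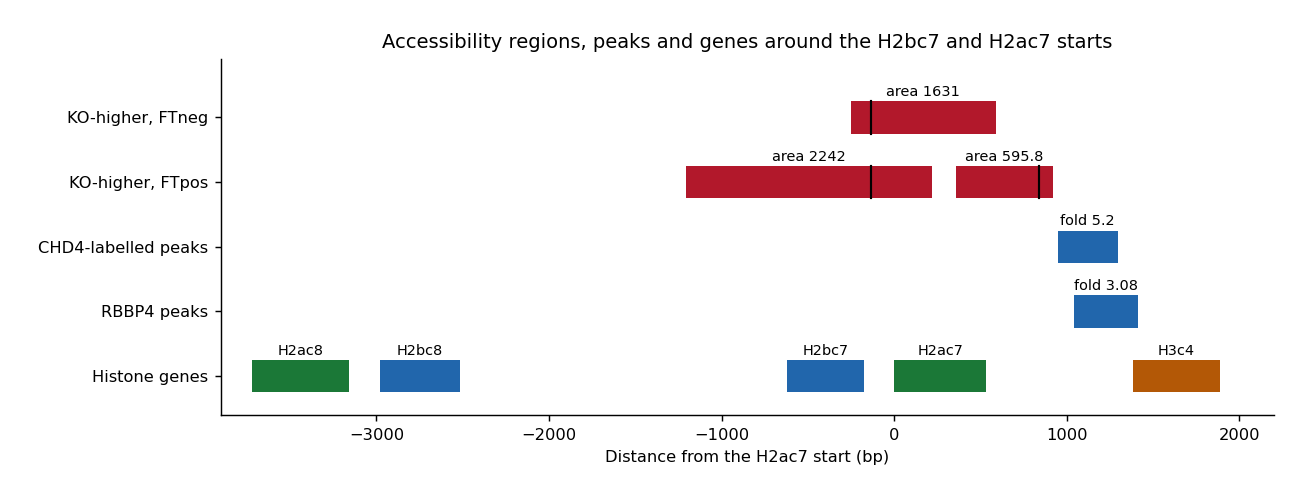
Position in bp from the H2ac7 start of the KO-higher accessibility regions of both fractions (red, with their area, black lines at the summits), of CHD4-labelled and RBBP4 peaks (blue, with their fold) and of the histone genes. The summits of the FTneg region and of the larger FTpos region stand 1 bp apart between the H2bc7 and H2ac7 starts, and no ChIP peak overlaps the regions.

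The other KO-higher regions were found in FTneg only, and whether they differ between the fractions was not tested. A region of 802 bp at H2bc9 and H3c7 (chr13:23544299-23545100) had an area of 751.6, rank 308 of 727. It shared 41 bp with a CHD4-labelled peak of 5.91-fold. A region of 473 bp at H3c6 (chr13:23562587-23563059) had an area of 569.8, rank 562 of 727, and shared 199 bp with an RBBP4 peak of 4.09-fold. The median area of the FTneg list was 704, so these 2 regions lay on either side of it.

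Promoter letters differed between some of the families. RefSeq promoters were available for 66 of the 71 genes (67 promoters, without H2bc21, H4c14, H3c7, H2bc4 and H3c1), and each was searched on both strands. CCAAT was found in 55 of 67 (82.1%), against 37.4% of 32851 promoters in the table. It was in all 18 H2A, all 17 H2B and all 10 H3 promoters, in 7 of 10 H1 promoters and in 3 of 12 H4 promoters. TATAAA was in 35 (52.2%), against 13.6%, and by family its share ran from 40.0% (H1 and H3) to 66.7% (H4). ATTTGCAT, the octamer known from H2B promoters, was in 14 (20.9%), against 1.74%, and these were 7 H2A and 7 H2B promoters. Head-to-head H2A and H2B genes share part of their promoters, so such matches are not independent. H4 had the lowest share of promoters with CCAAT and the highest share of genes with RBBP4 peaks among the 5 families. The other families did not keep to this order. H1 had RBBP4 at 4 of 10 genes, a lower share than H3, with 6 of 12 and CCAAT in all promoters. H2A and H2B, also with CCAAT in all promoters, had RBBP4 at 3 of 18 and 5 of 18 genes. A link between CCAAT and RBBP4 peaks was not tested.

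Histone variant genes outside the symbol rule did carry MBD3 peaks. Of 9 histone genes listed here as replication-independent, 5 had one: H2az1 (3.65-fold), H2az2 (4.82), Macroh2a1 (4.98), Macroh2a2 (3.56) and H3f3a (3.34). For all protein-coding genes the MBD3 share was 23.4%. The CHD4-labelled list was at 8 of these 9 and RBBP4 at 4, against 44.7% and 46.9% of all genes, and Macroh2a1, a macroH2A gene, had all 6 lists. H2ax, the variant phosphorylated at DNA breaks, had none.

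Lists of genes whose products transcribe, process and carry histones were counted in the same way. Over all protein-coding genes the shares were 44.7% for the CHD4-labelled list, 46.9% for RBBP4, 27.4% for the HDAC1-labelled list, 23.4% for MBD3, 9.88% for the HDAC2-labelled list and 12.3% for RBBP7. Of 14 genes of histone transcription and pre-mRNA processing, 13 had a CHD4-labelled peak, 11 an RBBP4 peak, 9 an HDAC1-labelled one, 5 an MBD3 one, 3 an HDAC2-labelled one and 2 an RBBP7 one. Npat, the coactivator that drives histone transcription, had a CHD4-labelled peak of 10.7-fold, an RBBP4 peak of 8.17-fold and an HDAC1-labelled peak of 6.14-fold, and no MBD3 peak. Slbp, which binds the histone stem-loop, had 5 lists, with 14.5-fold in the CHD4-labelled list and 3.61-fold for MBD3. Of 20 chaperone and acetyltransferase genes, 18 had a CHD4-labelled peak, 13 an RBBP4 peak, 10 an HDAC1-labelled one, 8 an MBD3 one, and 3 each an HDAC2-labelled and an RBBP7 one. Daxx, an H3.3 chaperone, had all 6 lists, and Npm1, a nucleolar chaperone, had none. No gene of these 3 lists had an accessibility region. Over all protein-coding genes the share was 0.18% in the KO-higher FTneg list and at most 0.0185% in the other accessibility lists. A count of 0 among 43 genes thus does not set these genes apart.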

How the data were processed

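Per the submitters' processing notes, the build was mm10 and the tools included MACS2 2.2.7.1, SAMtools 1.10, deepTools, Genrich and BWA, without settings. Per the labels' protocols, ChIP material was crosslinked in 5 mM DSG followed by 1% PFA. No protocol for ATAC-seq is given in the sources used here. The deposited ChIP lists hold, per peak, the authors' fold enrichment (a ratio to input at the summit) and the −log10 p and −log10 q. By the labels, input 1 served HDAC1 and HDAC2, input 2 served CHD4 and MBD3, and input 3 served RBBP4 and RBBP7. The 4 deposited accessibility lists, each called over the 3 embryos of each genotype together, hold a score, the area of −log10 p over the region as the authors computed it, at least 500. Depth is unknown.

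Peaks were joined to genes with Python 3.11.15, pandas 2.3.3 and numpy 2.4.6 by any overlap (at least 1 bp) with the 1 kb on either side of a gene end. The overlap step was tested on simulated intervals. No test was made. The members and gene lists were chosen with earlier results of these data known. Named were all genes with an accessibility region, the 3 highest folds per ChIP list, isolated genes and genes without peaks (3 examples where a cluster had more than 5); H4 genes and others were named after their values were seen. Alternatives were windows of 250 bp and 5 kb, the summit in the window, −log10 q of at least 10, area of at least 1000, curated genes only and clustered genes only; current symbols only and 1 kb around start sites were added after seeing the data.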

Additional observations from a re-analysis of the deposited data

How the results depend on the processing

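Each of 26 counts and medians was recomputed under the alternatives, giving 190 values, of which 176 stayed within 1.5 times the reported one. MBD3 stayed at 0 histone genes under all 8 alternatives that apply to it, and the HDAC2-labelled list under all but the 5 kb window. Only the 5 kb window took in much more sequence, so the other alternatives could hardly have raised a count of 0. Those zeros are among the 176 values. The windows of 250 bp and of 1 kb around start sites, the summit rule, curated genes and current symbols moved no value by more than 1.5 times. With 5 kb on either side, the HDAC2-labelled list had 1 peak at 1 histone gene (1.41%, against 13.1% of all genes). With the same window RBBP4 was at 43 (60.6%, against 54.3%) and RBBP7 at 19 (26.8%, against 17.8%). The KO-higher FTpos list was then at 5 (7.04%, against 0.0277%). RBBP4 was thus above the share of all genes with this window and below it with 1 kb. The CHD4-labelled list then stood at 64.8%, against 50.8%. From 1 kb to 5 kb, distinct peaks at histone genes went from 29 to 30 for RBBP4 and from 32 to 36 in the CHD4-labelled list. RBBP7 had 7 with both windows. For RBBP4 and RBBP7 the higher gene counts thus came mostly from the same peaks counted for more neighbouring genes. With −log10 q of at least 10, the CHD4-labelled and RBBP4 lists had 18 distinct peaks each at histone genes. The HDAC1-labelled list then had 2 peaks at 2 genes (2.82%, against 8.77% of all genes). RBBP7 also had 2 peaks at 2 genes (2.82%, against 2.82%). The median width of those HDAC1-labelled peaks was then 574 bp. With an area of at least 1000, the KO-higher FTneg list was at 3 genes (4.23%, against 0.0324% of all genes), H2bc7, H2ac7 and H3c4. Without the isolated genes, the HDAC1-labelled list had 8 distinct peaks. No paired analysis was possible because no test was made: each ChIP target has 1 library and each accessibility list combines its embryos, so no replicate could be left out. Peaks below the authors' thresholds are not in the lists, so a gene without a peak is not shown to lack binding.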

Other observations

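Between its histone genes, the smaller chromosome 13 cluster did hold peaks of the lists that were missing at the genes. The HDAC2-labelled list had 10 peaks in the 328 kb span, with folds of 3.47 to 6.43, and the nearest lay 5763 bp from a histone gene. MBD3 had 2, with folds of 4.87 and 7.14, the nearer of them 53420 bp from a histone gene. The higher one lay at Pom121l2, a relative of the nucleoporin gene Pom121. Zfp184, a zinc-finger gene there, had a CHD4-labelled peak of 12.52-fold. No other cluster span held a peak of MBD3 or of the HDAC2-labelled list. Of the 10 other protein-coding genes within the spans, 7 had no peak (70.0%, against 44.0% of all protein-coding genes), among them Hfe, Trim38 and 4 Slc17a genes. This difference was not tested.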
